A study of Mus musculus with 2 samples.

Results

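The Langerhans cells and their precursors of the epidermis were examined as 297 cells of 19488 that passed the cell filter, out of 26683 deposited barcodes. The cells came from the dorsal epidermis of 2 male Chrm3 KO mice (Chrm3-/-, C57BL/6J background) at postnatal day 0, with 1 droplet library per mouse. All cells compared here therefore carry the same germline loss of the M3 muscarinic acetylcholine receptor, and wild-type libraries were not analysed here. Both mice were newborn, so the cells are those of an epidermis whose Langerhans network is still forming. A cell passed the filter with 900 to 7700 detected genes and under 10% of its unique molecular identifiers (UMIs, each standing for 1 captured transcript) from mitochondrial genes. The cells were chosen by measured values. They held at least 10 UMIs summed over Csf1r, C1qa, C1qb, Ctss and Lyz2, with at least 2 of these 5 genes detected, at most 1 UMI of the T-cell receptor genes Cd3g, Cd3d and Cd3e, and at most 20 UMIs of the keratins Krt14 and Krt5. KO mouse 1 gave 131 of these cells among 7607 (1.72%, exact binomial 95% interval 1.44 to 2.04) and KO mouse 2 gave 166 among 11881 (1.40%, 1.19 to 1.62). The intervals in this account cover counting error only.

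Langerhans cells are the resident antigen-presenting cells of the epidermis. Their precursors enter the fetal skin as yolk sac and fetal liver myeloid cells, divide in place around birth, and acquire major histocompatibility complex (MHC) class II, the adhesion molecule EpCAM and finally the lectin langerin, the product of Cd207. Survival of the lineage depends on the receptor Csf1r and its ligand Il34 from keratinocytes (KCs), and differentiation on transforming growth factor beta. Precursors carry the complement genes C1qa, C1qb and C1qc, Cx3cr1 and other transcripts that are shared with tissue macrophages.

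The cells were sequenced to similar depth in both mice. The median was 9481 UMIs and 2575 genes per cell in KO mouse 1, and 9544.5 UMIs and 2560.5 genes in KO mouse 2, with summed totals of 1329746 and 1674218 UMIs. Levels below are UMIs of a gene per 1000000 UMIs (CPM) in the sum over these cells, given for KO mouse 1 and then KO mouse 2. Since 1 end of each transcript is counted, they are not divided by gene length, and levels are compared between cells and not between genes. The summed rule genes ranged from 11 to 280 UMIs per cell with a median of 78. The 4 cells nearest the limit inside it held 11, 12, 12 and 12 UMIs, and the 4 nearest outside held 9, 9, 8 and 8. None of the 297 cell barcodes was shared by the libraries, while 127 barcodes were shared over all deposited barcodes.

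The targeted gene was examined before any other. Chrm3 had 0 UMIs in the cells of both mice, which allows up to 2.26 CPM in KO mouse 1 and 1.79 CPM in KO mouse 2. KCs of the same libraries held 6 and 12 Chrm3 UMIs (0.134 and 0.152 CPM), and how the counted transcript end lies to the deleted part is not given in the sources used here, so these counts do not test the genotype. Of 11 cholinergic genes examined (the 5 muscarinic receptors, nicotinic subunits, the choline transporter Slc5a7 and the enzymes Ache and Chat), 10 had 0 UMIs in these cells and Chrnb1 had 3.

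The label was then checked against marker genes. The 4 markers given for these cells were present in nearly all of them. Cd74, the invariant chain that escorts MHC class II, was detected in 96.3% of the cells, the signalling adaptor Tyrobp in 100%, C1qb in 97.3% and Csf1r in 96.6%. C1qb and Csf1r are part of the rule, so their presence is no finding. Langerin was close to absent. Cd207 had 6 UMIs in 3 of 131 cells of KO mouse 1 (2.29%, 0.475 to 6.55) and 0 UMIs in 166 cells of KO mouse 2, where the interval reaches 2.20%. In the KCs, which lack langerin, 1 of 3005 cells (0.0333%) and 1 of 5417 cells (0.0185%) held a Cd207 UMI at median depths of 11610 and 11728 UMIs. With each cell thinned to 3000 UMIs, 2 of 130 cells of KO mouse 1 kept a Cd207 UMI. Ly75, the lectin DEC-205 of mature Langerhans cells, had 2 UMIs in all. Since langerin was found in so few of them, the cells are called Csf1r+ C1q+ cells from here on. The name is a shorthand for the rule, which asks for any 2 of its 5 genes, so single cells may lack Csf1r or C1q transcripts.

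**Figure D1:**
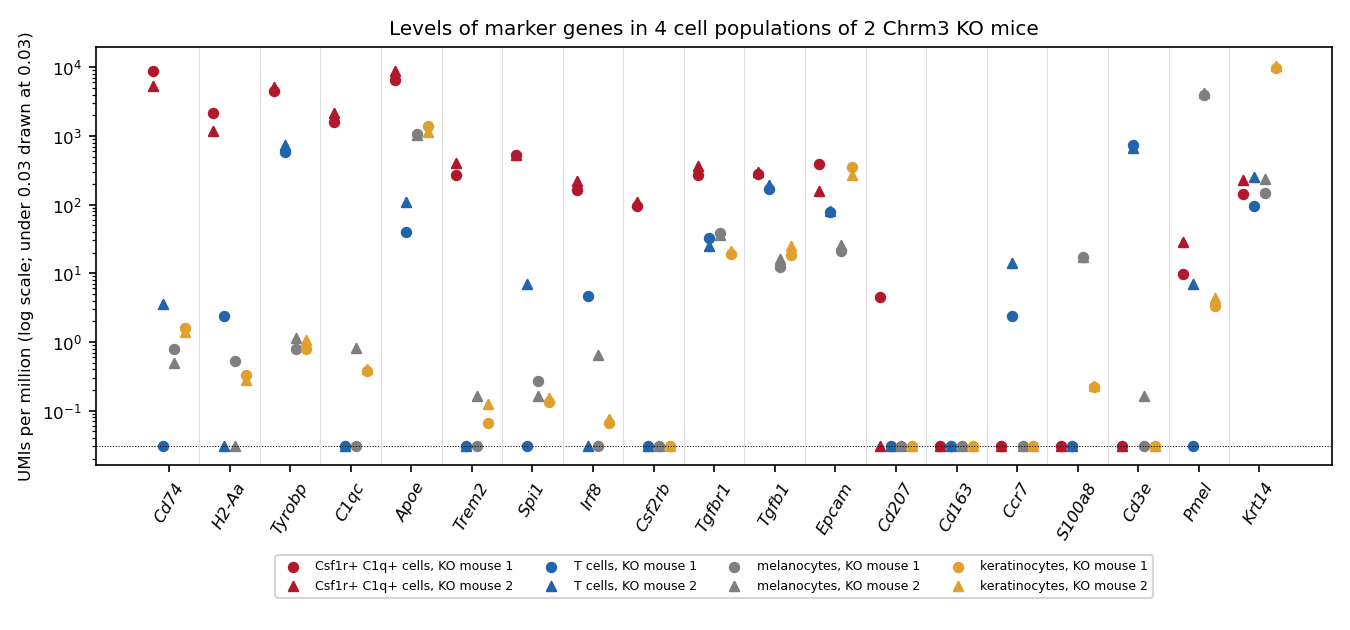
CPM (log axis) of 19 genes in the Csf1r+ C1q+ cells, T cells, melanocytes and keratinocytes of KO mouse 1 (circles) and KO mouse 2 (triangles), with values under 0.03 drawn at the dotted line. The Csf1r+ C1q+ cells lie between 5350 and 8884 for Cd74 while Cd207, Cd163, Ccr7 and S100a8 are at or near 0 in them, and Krt14 is low in them as in T cells and melanocytes, which the limit on Krt14 and Krt5 fixes.

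Markers of other cells were measured over whole lists. Dermal-type macrophage genes summed to 231 and 283 CPM, with 7 of 10 genes detected. The scavenger receptor Cd163, the hyaluronan receptor Lyve1 and the phosphatidylserine receptor Timd4 had 0 UMIs and Folr2 had 1, while the mannose receptor Mrc1 was found in 49.2% of the cells and the chemokine Pf4 in 34.7%. The monocyte list summed to 588 and 409 CPM with 5 of 8 genes detected. It was led by S100a4 (mean 426 CPM), and the monocyte chemokine receptor Ccr2 stood at 57.9 and 68.1 CPM in 29.0% of the cells, while Plac8 and Chil3 had 0 UMIs. Of 10 neutrophil genes 9 were at 0, among them S100a8 and S100a9, and of 7 mast cell genes 6 were at 0. Of 9 genes of other dendritic cells 6 were detected, summing to 99.3 and 86.6 CPM and led by Siglech (40.6 and 35.8 CPM) and Mgl2 (34.6 and 22.7 CPM), while Xcr1, Clec9a and Cd209a were at 0. All 5 erythroid genes were at 0, and T-cell genes had 2 UMIs in all, which the rule forces for the Cd3 genes. Keratinocyte genes summed to 2834 and 2028 CPM, led by Krt10 (mean 1148 CPM), and melanocyte genes to 12.8 and 60.3 CPM. Krt14 stood at 141 and 228 CPM in the Csf1r+ C1q+ cells, 94.6 and 255 CPM in T cells and 145 and 235 CPM in melanocytes, and these ranges overlapped. Cells with over 20 UMIs of Krt14 and Krt5 were left out of all 3 populations, so this low level is fixed by the selection and is no finding.

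To place the cells among their neighbours, 3 further populations were drawn from the same libraries by their own transcripts: 78 T cells, 1003 melanocytes and 8422 KCs. UMIs were summed per population and mouse, and edgeR's quasi-likelihood test was fitted on the 8 sums over 11534 genes. Against T cells, 2132 genes were higher in the Csf1r+ C1q+ cells (18.5% of those tested) and 1276 lower (11.1%), 29.5% in either direction at an adjusted p under 0.05. Against KCs, 3466 genes were higher (30.1%) and 3535 lower (30.6%), 60.7% in all. Because the cells were selected on transcripts of this same contrast, these counts describe the cells and are no independent evidence. The 8 genes furthest above T cells included Hpgd, which breaks down prostaglandins (at least 165-fold, with 3 UMIs over the T-cell sum standing for 0), Tgfbi (at least 142-fold), Aif1 (at least 117-fold), Cxcl16 (at least 109-fold) and the oxidase subunit Cybb (at least 99.8-fold). The 8 furthest below included the granule gene Nkg7 (at least 1660-fold lower), Thy1 and Itgae, all at 0 UMIs in the Csf1r+ C1q+ cells. Against KCs the 8 furthest above included the Fc receptors Fcgr1 and Fcgr2b and the actin bundler Lcp1, and the 8 furthest below the lipid genes Fa2h and Elovl3.

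MHC class II genes were far above both neighbours. Cd74 stood at 8884 and 5350 CPM in the Csf1r+ C1q+ cells, at 0 and 3.54 CPM in T cells and at 1.58 and 1.40 CPM in KCs. H2-Aa, the alpha chain of the class II molecule I-A, stood at 2128 and 1167 CPM, its partner H2-Ab1 at 2348 and 1313 CPM and H2-Eb1, a chain of I-E, at 1569 and 877 CPM. For each of these 4 genes KO mouse 1 was the higher mouse, and with 1 library per mouse this was not tested. Of 10 class II genes 9 were tested against T cells and 9 were higher, where 18.5% of all genes were. The whole list held 7 UMIs in T cells, so its tested genes could hardly come out otherwise. The 9 tested genes of the MHC class I pathway were all higher than in KCs, where 30.1% of all genes were. Against T cells 2 were higher, 1 was lower and 6 were not called, a share close to the 29.5% of all genes called in that comparison. H2-D1, a class I heavy chain, was at 726 and 658 CPM against 1478 and 1169 CPM in T cells and 89.5 and 81.9 CPM in KCs.

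Macrophage and phagocyte genes followed. Apoe, the lipid carrier apolipoprotein E, stood at 6433 and 8670 CPM, compared with 40.2 and 110 CPM in T cells and 1382 and 1157 CPM in KCs. Trem2, a lipid-sensing receptor of macrophages, stood at 269 and 408 CPM and had 0 UMIs in T cells, at least 81.5-fold higher when 3 UMIs over the T-cell sum stand for 0. Adgre1, which encodes F4/80, was at 137 and 135 CPM and likewise at 0 in T cells. All 13 tested genes of the macrophage and precursor list were higher than in each neighbour, where 18.5% of all genes were higher than in T cells and 30.1% than in KCs. Of these genes Adgre1, Aif1, C1qc, Fcgr1, P2ry12 and Trem2 were at 0 in T cells, and Fcgr1 had 0 and 1 UMIs in KCs. Such genes could hardly be tested without being higher, so the count is a description. The cysteine protease inhibitor Cst3 led the lysosome list with 7797 and 7489 CPM, and 14 of 15 lysosome genes were higher than in T cells beside the same 18.5% of all genes, the protease Ctsd being the lower one at 153 and 177 CPM against 681 and 535 CPM.

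Of 8 tested receptor genes of Langerhans development 6 were higher and 2 lower than in T cells, where 18.5% and 11.1% of all genes were. Csf2rb, the shared chain of the GM-CSF receptor, stood at 96.3 and 110 CPM, with 0 UMIs in T cells, so it could hardly be tested without being higher. Tgfbr1, the type I receptor for transforming growth factor beta, was detected in 91.2% of the cells at 271 and 366 CPM, against 33.1 and 24.8 CPM in T cells and 19.0 and 20.9 CPM in KCs. Its partner Tgfbr2 was lower than in T cells, at 25.6 and 14.9 CPM against 92.2 and 63.8 CPM, as was the bone morphogenetic protein receptor Bmpr1a, at 7.52 and 2.99 CPM against 16.6 and 21.3 CPM. The ligand gene Tgfb1 was at 277 and 302 CPM in the Csf1r+ C1q+ cells and at 18.3 and 24.8 CPM in KCs. The ligands made by the epithelium lay the other way. Il34 was at 14.7 and 12.7 CPM in KCs and 4.51 and 0.597 CPM in the Csf1r+ C1q+ cells, and the chemokine Cxcl14 at 875 and 899 CPM in KCs and 20.3 and 25.1 CPM here. Over the ligand list, 5 of 7 tested genes were lower than in KCs and 1 was higher, where 30.6% of all genes were lower and 30.1% higher.

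Among transcription factors, Spi1, which encodes PU.1 and is required for the myeloid lineage, stood at 520 and 521 CPM and was detected in 98.3% of the cells. Irf8 was at 165 and 217 CPM, Id2 at 405 and 291 CPM and Runx3, which Langerhans cells require, at 174 and 153 CPM, below the 300.3 and 329 CPM of T cells. Irf4 had 0 UMIs. Among maturation genes the costimulatory molecule Cd86 was detected in 66.0% of the cells at 156 and 112 CPM, whereas the migration receptor Ccr7 and the cytokine gene Il12b had 0 UMIs. The 20 genes with the largest fold over all other filtered cells, with 10 CPM added to both, were led by Cd74 (268-fold), Tyrobp (240-fold), C1qa (177-fold), C1qb (175-fold) and Ctss (167-fold), of which the last 3 belong to the rule.

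The cells differed widely among themselves in MHC class II. Per cell, UMIs of H2-Aa, H2-Ab1, H2-Eb1 and Cd74 per 10000 UMIs ran from 0 to 848 in KO mouse 1 with quartiles at 10.7, 50.1 and 262, and from 0 to 715 in KO mouse 2 with quartiles at 4.26, 14.4 and 124. Under 10 per 10000 lay 32 of 131 cells (24.4%) and 71 of 166 cells (42.8%), and at 100 or more lay 51 (38.9%) and 44 (26.5%). The distribution was broad in both mice, with cells at every level between, and its median was higher in KO mouse 1. In the summed cells the 4 genes made up 14930 and 8708 CPM, and the immediate early list, a set of genes that respond to cell isolation, was also higher in KO mouse 1 (3836 and 2420 CPM). The part of that list in the difference between the mice was not tested.

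**Figure D2:**
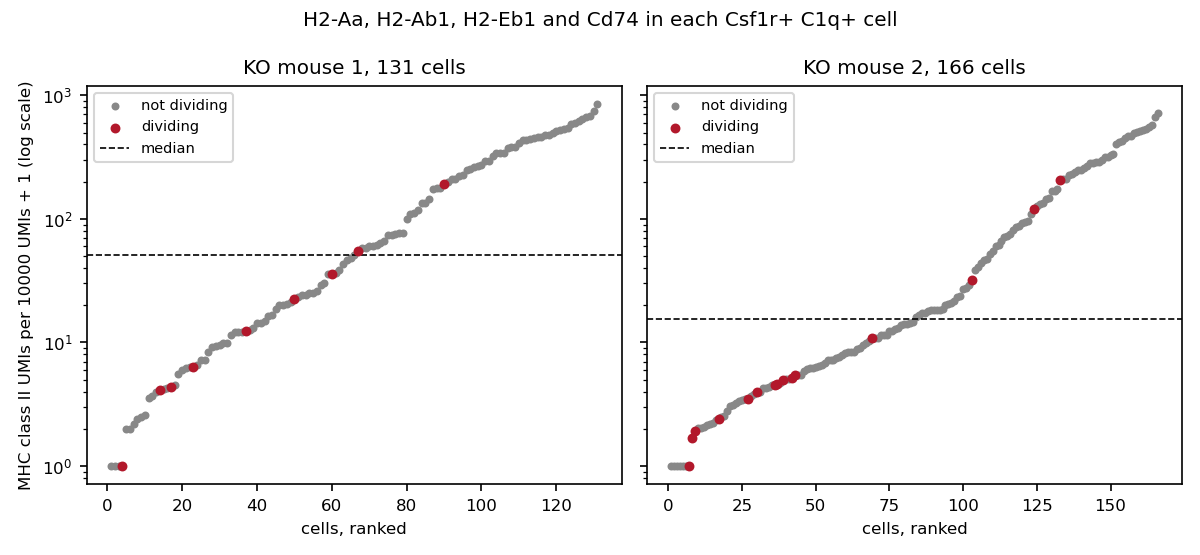
Each point is 1 Csf1r+ C1q+ cell, ranked along the x axis within its mouse, and the y axis (log scale) gives its MHC class II UMIs per 10000 UMIs, plus 1. The dashed line marks the median of each mouse, 50.1 and 14.4, and the 24 dividing cells (red) lie mostly below it.

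Class II genes share a promoter layout in which an X box and a Y box, the latter an inverted CCAAT motif, lie shortly before the start and are read by the factors that the coactivator CIITA joins. The 130 bases before the start of 4 class II genes are given here because class II genes varied together over the cells described next. They come from RefSeq windows on GRCm38.p6 and are written 5′ to 3′ on the strand of the gene. Capitals mark GATTGG (Y box) or its complement CCAATC, and AACTGATGA (letters like those of the X box), both searched on either strand after these sequences had been seen.
H2-Aa (chr17:34287824-34287953, minus strand): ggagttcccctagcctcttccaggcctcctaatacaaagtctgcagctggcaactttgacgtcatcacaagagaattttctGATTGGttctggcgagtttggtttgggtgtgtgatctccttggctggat
H2-Eb1 (chr17:34305737-34305866, plus strand): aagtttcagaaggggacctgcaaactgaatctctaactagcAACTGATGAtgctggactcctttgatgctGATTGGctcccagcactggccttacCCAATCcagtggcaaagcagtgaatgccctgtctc
H2-DMb1 (chr17:34153061-34153190, plus strand): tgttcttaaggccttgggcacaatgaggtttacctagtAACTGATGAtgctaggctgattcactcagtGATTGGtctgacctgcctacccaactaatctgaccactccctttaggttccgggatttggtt
H2-Oa (chr17:34092249-34092378, plus strand): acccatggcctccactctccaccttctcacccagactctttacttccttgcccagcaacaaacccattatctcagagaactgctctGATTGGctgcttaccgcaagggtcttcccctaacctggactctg
Of the 10 class II genes listed, 7 had a window in the table, and 6 of those 7 held GATTGG on 1 of the strands, H2-DMa being the one without. Over all 32851 promoter windows of this length, 10.1% held GATTGG and 0.0974% held AACTGATGA, which 2 of the 7 genes held. A match is a description of the letters and not of a bound site.

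The cells of each mouse were then divided at that mouse's median into MHC-high and MHC-low cells (65 and 66 cells in KO mouse 1, 83 and 83 in KO mouse 2), and the sums were compared over 6342 genes that neither the split nor the selection had used. MHC-high cells held more of 4 other class II genes and of Epcam, Cdh1 and Cldn1, and less of 7 genes of the macrophage and precursor list, among them Apoe, C1qc, Trem2 and Cx3cr1. In all 49 genes were higher (0.773% of those tested) and 72 lower (1.14%), 1.91% together at an adjusted p under 0.05 by edgeR's quasi-likelihood test. With the mouse as a replicate block 106 were higher and 197 lower, and by DESeq2's Wald test 13 and 18, with 2 class II genes higher and 2 macrophage genes lower among them. The cut runs through a continuous range, with 19 and 29 cells within 1.5 times of their median.

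The class II genes outside the split moved with it. H2-DMb1, a chain of the peptide loading molecule H2-DM, had 730 and 410 CPM in MHC-high cells and 47.8 and 51.6 CPM in MHC-low cells. This is a log2 difference of 3.51 ± 0.24 (SE, 2 mice, edgeR adjusted p = 2.65e-07). H2-DMa had 1191 and 798 CPM against 421 and 401 CPM. Ciita, the master coactivator of class II transcription, had 32.4 and 18.7 CPM in MHC-high cells, and 1 UMI in all in the MHC-low cells of both mice. H2-Oa, which tempers H2-DM, had 35.6 and 31.2 CPM against 5.62 and 5.73 CPM. The groups did not overlap for these 4 genes, and H2-DMb2, the other class II gene tested, was not called. Ciita and H2-Oa held under 10 UMIs in each MHC-low sum and passed the low-count filter through the MHC-high sums alone, so they could hardly be tested without being higher. H2-DMa and H2-DMb1 held 34 or more UMIs in every sum. Of 9 tested genes of the MHC class I pathway 0 were called, where 1.91% of all genes were, and their median was 0.03, with B2m at 1384 and 1336 CPM against 1288 and 1388 CPM.

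Of 11 adhesion genes tested 3 were higher (Epcam, Cdh1 and Cldn1) and 8 were not called, with a median log2 difference of 0.07, where 0.773% of all genes were higher. Epcam had 800 and 303 CPM in MHC-high cells and 39.3 and 20.6 CPM in MHC-low cells (log2 difference 4.21 ± 0.37, SE, edgeR adjusted p = 6.65e-06). KCs also held Epcam, at 353 and 270 CPM. The keratinocyte list summed to 1110 and 1993 CPM in MHC-high cells and 4330 and 2061 CPM in MHC-low cells, and the part of KC RNA in the Epcam difference was not tested. Cdh1, which encodes E-cadherin and tethers Langerhans cells to KCs, had 168 and 58.6 CPM against 35.1 and 20.6 CPM, and the tight junction gene Cldn1 had 59.9 and 47.4 CPM against 4.21 and 10.3 CPM. Mfge8, a secreted bridge between dying cells and phagocytes, had 105 and 66.1 CPM against 23.9 and 24.1 CPM. Beside the same 0.773%, of 5 Langerhans identity genes tested Epcam and Mfge8 were higher and Cd52, Itgax and Sirpa were not called. Among the 8 genes with the largest rise, of which Ly6a, Trp53i11, Slc36a2 and Cldn1 likewise held under 10 UMIs in each MHC-low sum, were also the surface antigen gene Ly6a (log2 difference 4.28), Trp53i11 (2.65), the amino acid transporter Slc36a2 (2.50) and Tbc1d4 (2.06), a regulator of vesicle traffic.

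Of the macrophage and precursor list, 7 of 13 tested genes were lower in MHC-high cells, where 1.14% of all genes were. Apoe had 3584 and 5155 CPM in MHC-high cells and 8905 and 11901 CPM in MHC-low cells (log2 difference -1.24 ± 0.16, SE, edgeR adjusted p = 0.000321). The fractalkine receptor Cx3cr1 had 76.1 and 173 CPM against 323 and 524 CPM, and Trem2 had 136 and 239 CPM against 385 and 564 CPM. C1qc, which the rule did not use although it is a genomic neighbour of C1qa and C1qb, had 999 and 1603 CPM against 2135 and 2655 CPM. None of the 13 was higher and their median was -0.83, the other lower genes being Fcgr3, Mertk and Ms4a7. Mrc1 (64.7 and 58.6 CPM against 159 and 163 CPM) and Pf4 (32.4 and 62.4 CPM against 104 and 209 CPM) were lower as well, and Fcrls fell by 2.60 on the log2 scale. In each of these genes the groups did not overlap.

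**Figure D3:**
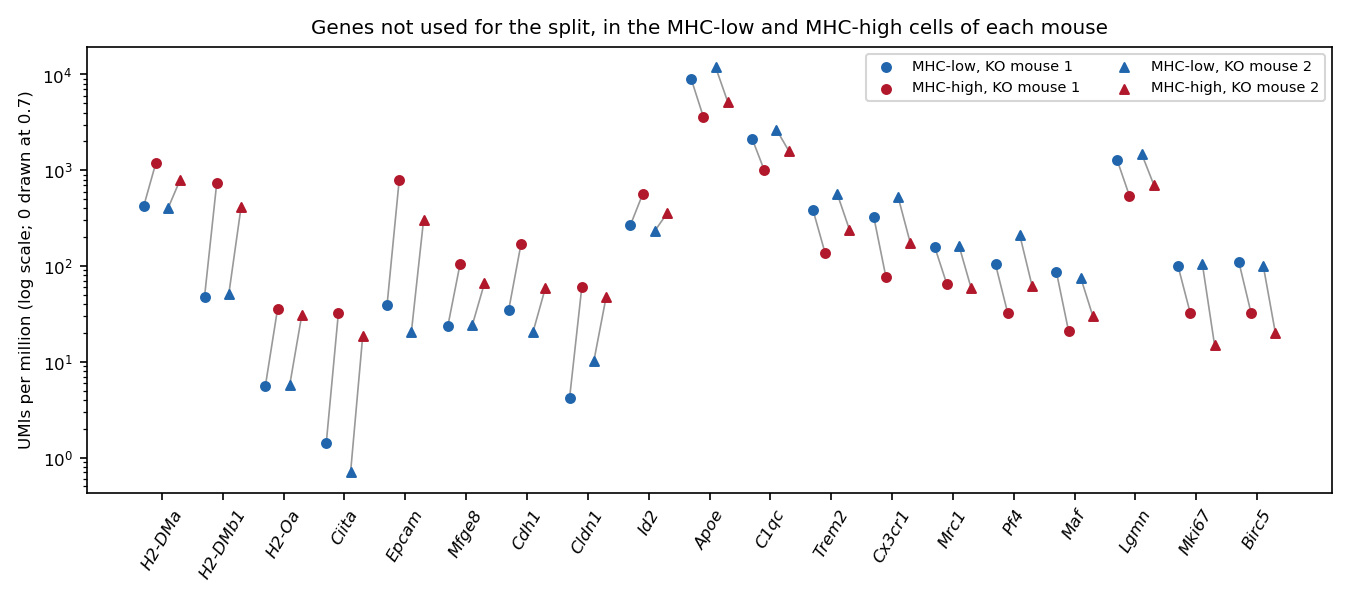
Levels in CPM (log axis) of 19 genes in the MHC-low (blue) and MHC-high (red) cells of KO mouse 1 (circles) and KO mouse 2 (triangles), with a line joining both groups of a mouse and 0 drawn at 0.7. The class II genes, Epcam, Cdh1 and Cldn1 run upward in both mice, from 20.6 to 303 for Epcam in KO mouse 2, while Apoe, Trem2, Cx3cr1 and the cell division genes run downward.

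Transcription factors and lysosomal genes were split. Maf, a factor of macrophage identity, was lower in MHC-high cells (21.0 and 29.9 CPM against 87.1 and 75.7 CPM). Id2, which Langerhans cells need to develop, was higher (562 and 354 CPM against 268 and 233 CPM). Spi1 (503 and 541 CPM against 535 and 502 CPM, log2 difference 0.02 ± 0.15, SE), Irf8 and Runx3 were not called. Of 15 lysosome genes Lgmn, Ctsb, Ctsd and Ctsz were lower and Cst3 was higher, at 9110 and 8971 CPM against 6658 and 6128 CPM, where 1.14% of all genes were lower and 0.773% higher. The receptors of Langerhans development had 0 of 5 called, where 1.91% of all genes were, and a median of -0.09. Tgfbr1, for one, had 277 and 338 CPM against 267 and 391 CPM.

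Some of these calls moved with other values. Among markers listed for other myeloid cells, S100a4 of the monocyte list was higher in MHC-high cells (847 and 543 CPM against 230 and 146 CPM, 1 of 2 tested). Mgl2 of the list of other dendritic cells was higher too (61.5 and 33.7 CPM against 11.2 and 12.6 CPM, 1 of 2 tested), where 0.773% of all genes were. Mgl2 passed the low-count filter through the MHC-high sums alone, so it could hardly be tested without being higher. Siglech, the other tested gene of that dendritic cell list, ran the other way (21.0 and 24.9 CPM against 57.6 and 45.8 CPM) and was not called. The part of these markers in the other calls was not tested. Cell division genes were lower in MHC-high cells, 7 of 10 on the G2/M list and 1 of 6 tested S-phase genes (Tk1), where 1.14% of all genes were. The other 5 S-phase genes were not called, with Pcna running the other way (log2 difference 0.79). Tk1 and Ccnb1 held under 10 UMIs in each MHC-high sum and passed the low-count filter through the MHC-low sums alone. These 2 genes could hardly be tested without being lower. Dividing cells made up 3.08% and 3.61% of MHC-high but 10.6% and 14.5% of MHC-low cells. Without the cells of the highest 6% of doublet scores 0 of 7 tested G2/M genes were called. With the dividing cells left out 25 genes were higher and 33 lower, and 1 of the 10 G2/M genes still passed the low-count filter and was not called. Of the macrophage list 4 genes were then lower and 0 higher, and 4 of 5 class II genes stayed higher. Krt1 (280 and 594 CPM against 1700 and 647 CPM) and the KC protease inhibitor gene Stfa1 (17.8 and 38.7 CPM against 218 and 48.1 CPM) were among the lower genes, each with most of the difference in KO mouse 1. Stfa1 changed sign (0.17) once the 151 cells of the subclusters led by KC or melanocyte genes were left out, where 73 genes were higher and 126 lower. The melanocyte gene Pmel was called higher in MHC-high cells on 14.6 and 53.6 CPM against 5.62 and 5.73 CPM. With 4 and 5 UMIs in the MHC-low sums, Pmel passed the low-count filter through the MHC-high sums alone and could hardly be tested without being higher. Melanocyte genes summed to 112 CPM in the MHC-high cells of KO mouse 2. The part of KC and melanocyte RNA in the other calls was not tested beyond this.

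The 3 cells with langerin lay above the class II median of their mouse, given here as a description. They held 1, 1 and 4 Cd207 UMIs, 17 to 20 Epcam UMIs and 676, 192 and 618 class II UMIs per 10000. Cells near the limit of the selection lay high as well. The 8 selected cells with 10 to 15 UMIs of the rule genes had a median of 550 class II UMIs per 10000 and 2141 CPM of Epcam, and the 4 cells with 5 to 9 UMIs, which the rule leaves out, had a median of 406 and 2259 CPM of Epcam with 0 C1qc UMIs. Over all selected cells these values were 22.3 and 261 CPM. The selection and the class II range are therefore not independent, since few UMIs of the rule genes went with many of class II in these cells.

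Dividing cells were defined by at least 5 UMIs and at least 3 detected genes of the 10 G2/M genes, among them Mki67, Top2a and Ccnb1. They numbered 9 of 131 (6.87%, 3.19 to 12.6) and 15 of 166 (9.04%, 5.15 to 14.5). In T cells the shares were 40.4% and 29.0%, in melanocytes 26.2% and 19.1% and in KCs 22.6% and 26.6%. With each cell thinned to 3000 UMIs they fell to 4.62% and 5.42% in the Csf1r+ C1q+ cells, 31.9% and 19.4% in T cells, 14.2% and 12.2% in melanocytes and 13.5% and 15.5% in KCs. At both depths the Csf1r+ C1q+ cells had the lowest share in both mice without overlap, though an exact permutation test of 2 mice against 2 cannot go below p = 0.333. In the fit over all genes 8 of 10 G2/M genes and all 7 S-phase genes were lower than in T cells, where 11.1% of all genes were lower. Against KCs 7 of 10 and all 7 were lower, where 30.6% of all genes were. Mki67, the proliferation antigen, was at 68.4 and 61.5 CPM against 343 and 368 CPM in T cells and 128 and 144 CPM in KCs.

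**Figure D4:**
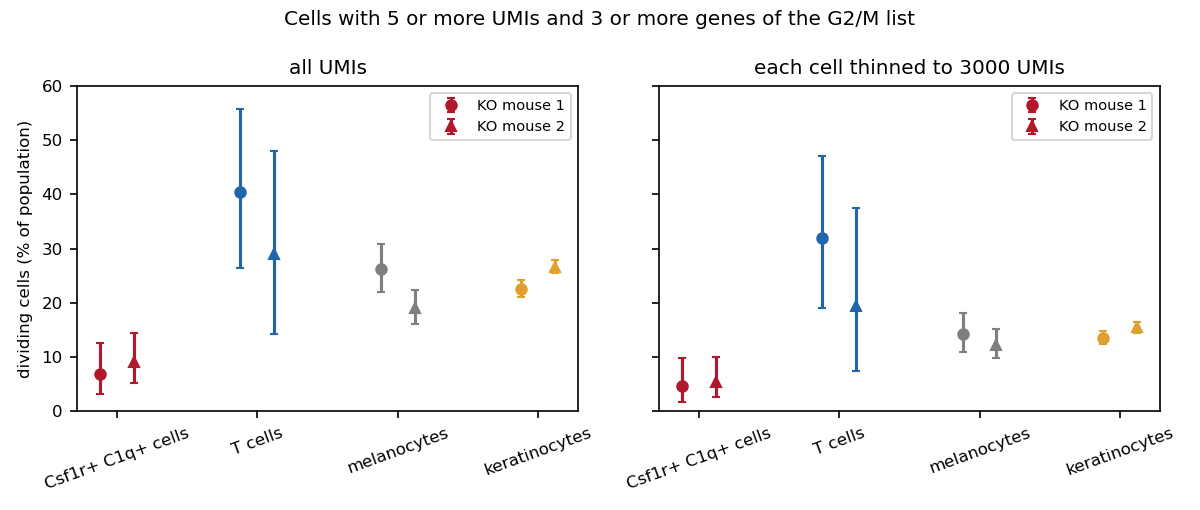
Percent of cells called dividing in 4 populations of KO mouse 1 (circles) and KO mouse 2 (triangles), from all UMIs (left) and with each cell thinned to 3000 UMIs (right), with exact binomial 95% intervals. The Csf1r+ C1q+ cells lie at 6.87% and 9.04% on the left and 4.62% and 5.42% on the right, the lowest of the 4 populations in both panels.

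The dividing cells were compared with the other Csf1r+ C1q+ cells over 6246 genes that had not defined them. Replication genes were higher and class II genes lower. By edgeR's quasi-likelihood test 249 genes were higher (3.99%) and 95 lower (1.52%), 5.51% in all, with 212 lower under the replicate block and 151 and 20 by DESeq2. Dividing cells were deeper, with medians of 15925 and 16674 UMIs against 9268 and 9341 UMIs, and a deeper cell passes a limit of 5 UMIs more easily. The cells were picked for G2/M transcripts, so a rise of further division genes was fixed by the choice and is a description. The 8 genes with the largest rise were such genes, and all 8 passed the low-count filter through the dividing cells alone. Among them, cyclin A2 (Ccna2) had 112 and 118 CPM against 0 and 0, at least 101-fold higher. Prc1 of the central spindle had 181 and 184 CPM against 0.855 and 2.07 CPM. Hmmr had 125 and 149 CPM against 0 and 0.691 CPM. Of 7 S-phase genes 6 were higher, where 3.99% of all genes were, for example thymidine kinase Tk1 with 125 and 96.5 CPM against 5.99 and 5.53 CPM. The other cells held only 7 and 8 UMIs of Tk1 and 1 and 6 UMIs of Rrm2, and Mcm5 and Tyms were low in them too. These 4 genes could hardly be tested without being higher, so their rise is likewise a description.

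Class II genes were lower in the dividing cells, 6 of 8 tested where 1.52% of all genes were, with a median log2 difference of -2.06 where that of all genes was -0.02. H2-Aa had 498 and 298 CPM in dividing cells and 2352 and 1304 CPM in the others (log2 difference -2.34 ± 0.23, SE, edgeR adjusted p = 5.93e-08), and Cd74 had 2721 and 1461 CPM against 9731 and 5963 CPM. The groups did not overlap for either gene. The same 6 of 8 were counted lower by DESeq2, with the block, and without the cells of the highest doublet scores. Per cell the median was 11.4 and 3.60 class II UMIs per 10000 in dividing cells, and 58.5 and 17.1 in the others, yet 5 of the 24 dividing cells lay above the median of their mouse. Apoe (7895 and 6672 CPM against 6232 and 8985 CPM), C1qc and Trem2 were not called, and of 13 macrophage genes Adgre1 and Tyrobp were lower, neither of which DESeq2 called. The transcription factor gene Zeb2 (143 and 70.2 CPM against 204 and 217 CPM) was lower, as were the immediate early genes Fos, Ier2, Ier3 and Junb, 4 of 8 tested beside the same 1.52%. Il1r2, the decoy receptor for interleukin 1, had 0 UMIs in dividing cells against 46.2 and 24.9 CPM, at least 4.46-fold lower. It passed the low-count filter through the other cells alone and could hardly be tested without being lower. Krt1 and Krt10 were lower too, and their part in the other calls was not tested. Without the cells of the highest 6% of doublet scores in each mouse, 73 genes were higher and 17 lower.

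To describe the cells further, they were clustered on their own variable genes after centring each mouse, which gave 6 subclusters. These were made from the same values, so their leading genes are a description with no test. The principal component with the most variance (3.05%) ran from H2-Aa, Epcam, H2-Ab1, H2-Eb1 and Cd74 at one end to Apoe, C1qc, C1qb, Lgmn and C1qa at the other. Subcluster 6 held 13 cells (8 and 5), and stood farthest out at the class II end, with a median of 527 class II UMIs per 10000. It was led by Tbc1d4 (875 CPM against 46.1 CPM in the other cells), Epcam (2318 against 177 CPM), Lpar3, the class I-like gene H2-M5, Mfge8 (450 against 35.7 CPM) and Alox5, the enzyme that starts leukotriene synthesis (408 against 35.3 CPM). Cldn1, Gcnt2, Il1r2 and Ptgs1 completed its 10 leading genes. It held 2 of the 3 cells with a Cd207 UMI, its macrophage list summed to 3431 CPM where the other subclusters had 10123 to 32715 CPM, and Cx3cr1, Ms4a7 and Pf4 were at 0. With 13 cells in the sum a count of 0 leaves low levels open, and subcluster 4 held these 3 genes at 38.6, 18.3 and 16.3 CPM. Csf1r and Spi1 were present in subcluster 6 at 323 and 433 CPM.

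Subcluster 4, with 51 cells (24 and 27), was led by Epcam, H2-Eb1, H2-Aa, H2-Ab1, H2-DMb1 and Cd74, followed by Ly6a, Gpr141, S100a4 and the lectin Mgl2. Its median was 321 class II UMIs per 10000, but Mfge8 (38.6 CPM) and Tbc1d4 (85.3 CPM) were well below subcluster 6 and Cd207 was at 0. Subcluster 3, with 63 cells (26 and 37), was led by the chemokine Ccl5, Spp1, Gbp2, Rsad2, Ifit3, Irf7, Zbp1 and Ifitm3, next to AW112010 and Saa3. Of these 10 leading genes 4 are on the list of interferon-induced genes. The interferon list summed to 1817 CPM in it and to 238 to 744 CPM in the other subclusters. Its class II median was 10.5 per 10000, and it had the highest Apoe level of the 6 (12516 CPM). Of its leading genes Ccl5 (137 and 5.07 CPM) and Saa3 (78.8 and 0 CPM) came mostly from KO mouse 1, as did Rsad2 (78.8 and 7.60 CPM), while Spp1 came mostly from KO mouse 2 (8.29 and 81.1 CPM) and Ifitm3 was even (386 and 383 CPM).

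Subcluster 5, with 19 cells (9 and 10), held 16 of the 24 dividing cells and was led by Cenpf, Mki67, Birc5, Prc1 and Top2a. It also held 1 cell with a Cd207 UMI. Subcluster 1, with 76 cells (35 and 41), was led by Ptgds and by the melanocyte genes Pmel and Dct, which stood at 106 and 78.6 CPM in KO mouse 2 and 15.2 and 6.06 CPM in KO mouse 1, and next by Rhob, Ccl4 and Klf2. Ptgds, Npy and Tm4sf1 were at 0 in KO mouse 1 and at 109, 38.0 and 30.4 CPM in KO mouse 2. Subcluster 2, with 75 cells (29 and 46), was led by the KC genes Clca3a2, Ly6d, Stfa1, Stfa3, Krt1 and Krtdap, and the keratinocyte list summed to 4997 CPM there. In KO mouse 1 its Krt1 was at 3780 CPM and in KO mouse 2 at 674 CPM. The leading genes of subclusters 1 and 2 thus include those of neighbouring cell types, whose part in them was not tested.

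**Figure D5:**
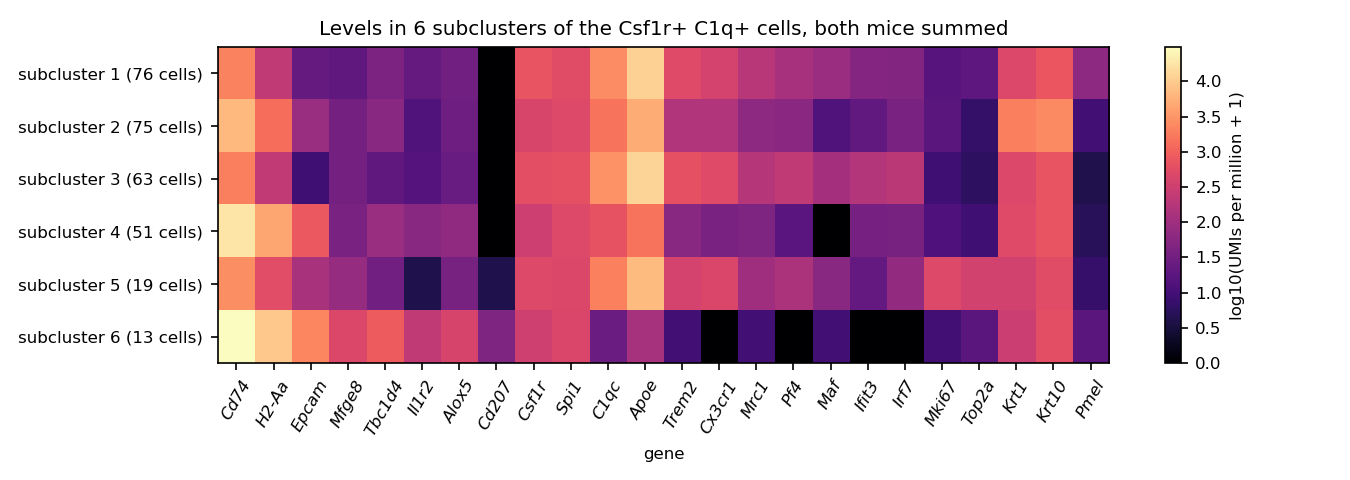
Levels, as log10 of CPM plus 1 (colour), of 24 genes (columns) in the 6 subclusters (rows), summed over both mice. Subcluster 6 is brightest for Cd74, Epcam, Mfge8 and Tbc1d4 and dark for Cx3cr1 and Pf4, subcluster 5 carries Mki67 and Top2a, and subcluster 2 carries Krt1 and Krt10 at 1958 and 2506 CPM.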

How the data were processed

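Epidermal cells of 2 mice were sequenced with droplet libraries (the labels name version 1 of the 3′ kit, the study's methods a later version). The deposited values are UMI counts per gene and barcode, which the authors made with Cell Ranger 3.0.2 on mm10 per the labels. The members, comparison populations and gene lists were chosen with earlier results of these data known, and the 6% doublet score and subcluster exclusions after seeing the data. T cells had at least 3 Cd3 UMIs, melanocytes at least 10 UMIs of Pmel, Dct, Mlana and Tyrp1, and KCs at least 100 UMIs of Krt14, Krt5, Krt1 and Krt10. Each had under 10 UMIs of the rule genes, with at most 1 Cd3 UMI outside the T cells, under 10 melanocyte UMIs outside the melanocytes and at most 20 UMIs of Krt14 and Krt5 in T cells and melanocytes. Counts were summed per population and mouse, filtered (filterByExpr) and tested with edgeR 4.0.16 (TMM, quasi-likelihood, Benjamini-Hochberg over all genes tested). Genes of the selection and mitochondrial genes were not tested. The mice are separate animals, so p-values rest on 2 of them. DESeq2 1.42.0 was the alternative. Sums of a mouse come from the same animal and are paired by it, which the main fits did not use. Their deviations from group means correlated weakly over all genes tested (0.026 to 0.075). This does not show that the pairing was without effect. With the replicate block the MHC-high comparison called 106 genes higher and 197 lower, and the dividing comparison 295 and 212. Named genes were list genes, the 8 with the highest and the 8 with the lowest log2 fold change in each test (at least 20 CPM in the higher group and the same direction in both mice), the 20 genes with the largest fold and the 10 leading genes of each subcluster. Scrublet in scanpy 1.11.5 marked 2 of 7607 cells of KO mouse 1, which is too few to have worked, and 416 of 11881 of KO mouse 2, 3 of them Csf1r+ C1q+ cells, and no cell was removed. Subclusters used 1500 variable genes, 15 components, 15 neighbours and Leiden resolution 0.8. The tests recovered most of the large changes planted in simulated sums. That simulation used a single fixed spread, well-counted genes and no pairing by mouse, and it left out the comparison with KCs. It does not show how well calls on low counts hold. No other value columns were left out.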

Additional observations from a re-analysis of the deposited data

Results flagged for a closer look

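Cd207 UMIs appeared outside the cells analysed. Of the 35 UMIs of the gene over all deposited barcodes, 25 lay in barcodes that failed the cell filter, a level of 0.774 CPM over the 7195 such barcodes where a count of 0 allows 0.0929 CPM. All 25 were in 4 barcodes, 2 of each mouse, with 5, 9, 3 and 8 Cd207 UMIs among 564, 618, 577 and 594 UMIs and with 321 to 345 genes, under the minimum of 900. They held 505 to 798 MHC class II UMIs per 10000 UMIs and 0 or 1 UMI of the rule genes. The Csf1r+ C1q+ cells held 6 of the 35 UMIs and the other filtered cells 4. The cause was not tested.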

How the results depend on the processing

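Counts of genes against T cells and KCs stayed within 1.5 times under all alternatives run, those chosen after seeing the data (highest doublet scores, subclusters) included. The MHC-high counts (49 higher, 72 lower) became 87 and 169 without the low-count filter, 13 and 18 by DESeq2, 106 and 197 with the replicate block, 26 and 28 without the 6% highest doublet scores, and 25 and 33 without dividing cells. Without the subclusters led by KC or melanocyte genes the lower count became 126 and Stfa1 turned to 0.17. Stfa1 differed by -3.54 in KO mouse 1 and -0.31 in KO mouse 2. The causes of these moves were not tested beyond the smaller or larger number of genes or cells that each alternative leaves. The dividing counts (249 higher, 95 lower) became 151 and 20 by DESeq2 and 73 and 17 without the 6% highest doublet scores. Their lower count became 215 without the filter, 212 with the block, 57 without called doublets and 53 without those subclusters. The share of Csf1r+ C1q+ cells (mean 1.56%) became 3.08% under a 5% mitochondrial limit. The share with a Cd207 UMI (mean 1.15%) became 0.407% with at least 20 UMIs of the rule genes. The dividing share (mean 7.95%) became 5.02% when thinned and 17.0% with 3 UMIs and 2 genes. Leaving out a mouse leaves no spread to test, so it gave folds only. Leaving out each mouse gave 1.40% to 1.72% of cells, 6.87% to 9.04% dividing, 0% to 2.29% with Cd207 and 8708 to 14930 CPM of class II.
Among the genes examined singly, DESeq2 lost 27 calls of the MHC-high and 16 of the dividing comparison, and leaving out the highest doublet scores lost 21 and 19, each with its direction kept.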

Other observations

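A further 37 cells (12 and 25) met every condition of the selection except the limit on Krt14 and Krt5. They were deep, with a median of 19789 UMIs, and their keratinocyte list summed to 11163 CPM beside 991 CPM of C1qc and 4394 CPM of Apoe. Scrublet called 19 of them doublets, 28 lay among the highest 6% of doublet scores, and 10 passed the limits for dividing cells. None held a Cd207 UMI, and their median of 10.4 class II UMIs per 10000 was below the 22.3 of the selected cells.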
